A study of Homo sapiens with 12 samples.

Results

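COX1, COX2, COX3, ATP6, ATP8 and CYTB are 6 of the mRNAs that human mitochondria make from their own genome. They were taken by name from the table of gene counts, as the 6 of its 43769 genes that carry these symbols on the mitochondrial chromosome, so the rule itself uses no measured value. COX1 and COX2 here are subunits of cytochrome c oxidase and not the prostaglandin synthases that share these short names. The libraries come from SK-N-DZ, a MYCN-amplified neuroblastoma line with wild-type ARID1A, in the form of a clone that carries a doxycycline-inducible short hairpin RNA against ARID1A, a subunit of the SWI/SNF chromatin remodeler. The 4 groups were untreated cells (C), cells given doxycycline for 4 days in all (D), cells given IFNγ for 24 h (I) and cells given both (DI), with 3 replicates each. All 4 groups share the parental line and the lentiviral hairpin construct with its puromycin resistance, also where the sample labels give the genotype as WT. No group received doxycycline without the hairpin, so the antibiotic, the hairpin and any loss of ARID1A cannot be told apart, and findings in a single clone may be particular to it.

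The mitochondrial genome is a small circle that is transcribed from each strand as a long precursor, which is cut at the tRNAs that lie between most of the genes, so neighboring mRNAs start from the same RNA, and their levels also depend on how each is processed and how long it lasts. COX1, COX2 and COX3 form the core of complex IV, the enzyme that passes electrons to oxygen. CYTB is the only mitochondrially encoded subunit of complex III, and ATP6 and ATP8 are membrane subunits of the ATP synthase. The remaining subunits of these complexes are encoded in the nucleus. Doxycycline belongs to the tetracyclines, antibiotics that bind bacterial ribosomes, to which mitochondrial ribosomes are related.

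In GENCODE release 29 (GRCh38) all 6 are annotated as protein-coding genes of a single exon on the plus strand: COX1 (ENSG00000198804) at chrM:5904-7445, COX2 (ENSG00000198712) at chrM:7586-8269, ATP8 (ENSG00000228253) at chrM:8366-8572, ATP6 (ENSG00000198899) at chrM:8527-9207, COX3 (ENSG00000198938) at chrM:9207-9990 and CYTB (ENSG00000198727) at chrM:14747-15887. ATP8, ATP6 and COX3 sit end to end. ATP6 starts 46 bases before ATP8 ends, in another reading frame, and the last base of ATP6 is the first of COX3. This overlap bears on every comparison of ATP8 with ATP6, so its 5' side is shown first, at chrM:8517-8540, with the ATP6 start codon in capitals inside the ATP8 gene. The last 24 bases of each gene follow, because the 6 differ in how their reading frames end. The capitals mark the last codon, or the single base that is left over after the last whole codon.
ATP6 start inside ATP8: gagaaccaaaATGaacgaaaatct
COX1 end: gaacccgtatacataaaatctAGA
COX2 end: atagggcccgtatttaccctaTAG
ATP8 end: cattcattgcccccacaatccTAG
ATP6 end: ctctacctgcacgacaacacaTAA
COX3 end: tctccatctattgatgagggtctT
CYTB end: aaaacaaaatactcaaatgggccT
COX2, ATP8 and ATP6 close with TAG or TAA. COX3 and CYTB close with a bare T, which the poly(A) tail extends to a stop codon, and COX1 closes with AGA, a codon that human mitochondria do not read as an amino acid.

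The 12 libraries held 16469832 to 21790869 counts, at which 3 counts equal 0.138 to 0.182 CPM (counts scaled to the size of the library), and all 6 mRNAs were far above that in every library. The reads carried no molecular identifiers, so this floor covers counting error only. ARID1A, the gene the hairpin targets, ranged between 165 and 197 CPM in untreated libraries and between 158 and 197 CPM with doxycycline. With IFNγ it ranged between 192 and 203 CPM, and with both between 133 and 151 CPM. By edgeR, ARID1A had a log2 fold change of −0.092 in D vs C (SE 0.11, adjusted p = 0.788, or 0.509 with replicate numbers fitted as a block) and of −0.44 in DI vs I (SE 0.11, adjusted p = 0.115, or 0.0111 with the block). The D group is therefore named by its label and not by a loss of ARID1A mRNA measured in these counts. The paper reports ARID1A knockdown in its SK-N-DZ hairpin line by RT-qPCR and Western blot, which were not examined here. All 9 markers of adrenergic neuroblastoma were above 3 counts in every library, their summed level was 4724 to 5455 CPM in C and 4467 to 5075 in D, 4 markers of fibroblasts or Schwann cells together reached 3.37 to 26.5 CPM, and 4 blood cell markers at most 1.25 CPM, with CD3E at 0 throughout. That sum hides single markers. TH, the rate-limiting enzyme of catecholamine synthesis, ranged between 3.13 and 74.7 CPM in C and between 0.695 and 7.04 CPM in D, with a log2 fold change of −3.78 by edgeR (SE 1.32, adjusted p = 0.219), and of −3.85 in DI vs I (adjusted p = 0.268). DBH, which makes noradrenaline from dopamine, ranged between 265 and 442 CPM in C and between 85.6 and 371 CPM in D, at −0.93 on the log2 scale (adjusted p = 0.601 by edgeR, 0.0433 with the block). For HAND2, a transcription factor of these cells, the log2 fold change was −0.63 (adjusted p = 0.509 by edgeR, 0.00603 with the block). In both comparisons edgeR called 0 of the 9 markers, with TH alone under 0.05 unadjusted, DESeq2 also called 0, and the block called DBH and HAND2 in D vs C and HAND2 alone in DI vs I. Of all genes, 0.733% were called lower in D vs C by edgeR, 7.67% with the block and 2.52% by DESeq2. In DI vs I these shares were 0.569%, 6.62% and 1.97%. The part of these markers in the results was not tested.

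Nothing in the labels says whether replicates were separate cultures, so the tests measure the spread between these libraries, which may be technical. In bulk RNA, fewer cells with a transcript and less of it per cell cannot be told apart.

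The mRNAs were lower in every D library than in every C library. The fitted change was 4.89-fold for COX1 and 1.98-fold for ATP8, the members with the largest and the smallest change. COX1, COX2, COX3 and CYTB lost most of their level, whereas ATP6 and ATP8 lost less. With IFNγ in both groups the order was much the same with smaller estimates, although the test of that difference called none of the 6, and no change with IFNγ by itself was detected. Fold changes below are given on the log2 scale from edgeR's quasi-likelihood test of all 15828 genes that passed its expression filter, and a gene is called when its Benjamini-Hochberg adjusted p is under 0.05. Libraries with the same replicate number deviated together, so each adjusted p is followed by the one from a fit with the replicate number as a block.

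COX1 is the catalytic subunit of complex IV and holds its heme groups. It stood at 12682, 10672 and 8717 CPM in replicates 1, 2 and 3 of C and at 2653, 2181 and 1723 CPM in D. In I it stood at 11717, 11241 and 8278 CPM, and in DI at 5573, 2769 and 1635 CPM. Every library with doxycycline was below every library without it, with or without IFNγ, and the lowest C library was still 3.29-fold above the highest D library. COX1 fell in D vs C by 2.29 on the log2 scale (SE 0.38, adjusted p = 0.0184 by edgeR, 0.000291 with the block). In DI vs I the log2 fold change was −1.65 (SE 0.37, adjusted p = 0.0815 by edgeR), which passed the threshold with the block (0.000996).

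COX2 receives the electrons from cytochrome c. Its levels in replicates 1, 2 and 3 were 7628, 6413 and 5593 CPM in C, against 2078, 2240.5 and 1004 CPM in D. They were 6874, 7759 and 4661 CPM in I, against 3815, 2337 and 1157 CPM in DI. Again neither pair of groups overlapped. D vs C gave a log2 fold change of −1.88 (SE 0.41, adjusted p = 0.0585 by edgeR, 0.000766 with the block), and DI vs I gave −1.40 (SE 0.41, adjusted p = 0.180 by edgeR, 0.00315 with the block).

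COX3 completes the mitochondrially encoded core of complex IV. The C libraries had 5528, 3289 and 3190.3 CPM of it and the D libraries 1311, 933 and 689 CPM. The I libraries had 4851, 3078 and 2639.6 CPM and the DI libraries 2739, 852 and 596 CPM. D lay wholly below C, but replicate 1 of DI lay just above the lowest I library, so that pair overlapped. COX3 changed by −2.03 in D vs C (SE 0.52, adjusted p = 0.0995 by edgeR, 0.000891 with the block) and by −1.34 in DI vs I (SE 0.51, adjusted p = 0.319 by edgeR, 0.00373 with the block).

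ATP6 forms part of the channel through which protons drive the ATP synthase. It was measured at 3753, 2188 and 2236 CPM in C and at 1425, 1109 and 918 CPM in D. With IFNγ it was at 3348, 2155 and 1818 CPM in I and at 3201, 1227 and 882 CPM in DI. The D libraries lay below the C libraries, while replicate 1 of DI was close to replicate 1 of I and above the other two I libraries. ATP6 changed by −1.24 in D vs C (SE 0.44, adjusted p = 0.224 by edgeR, 0.00399 with the block). Its value for DI vs I was −0.46 (95% interval −1.42 to 0.49, adjusted p = 0.762 by edgeR), and this was the one comparison of these 12 that missed the threshold with the block too (−0.60, adjusted p = 0.0775).

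ATP8, a short membrane subunit of the same enzyme, had by far the fewest counts. Untreated replicates 1, 2 and 3 were at 65.6, 43.1 and 38.6 CPM, against 26.4, 25.6 and 22.2 CPM with doxycycline. The I libraries were at 55.8, 43.2 and 38.5 CPM, against 50.3, 21.3 and 19.9 CPM in the DI libraries. As for ATP6, D lay below C without overlap, and the first replicate of DI lay among the I libraries. ATP8 changed by −0.99 in D vs C (SE 0.34, adjusted p = 0.211 by edgeR, 0.0104 with the block) and by −0.59 in DI vs I (SE 0.33, adjusted p = 0.540 by edgeR, 0.0463 with the block).

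CYTB carries electrons from ubiquinol within complex III and lies far from the other 5 on the circle. Replicates 1, 2 and 3 gave 3255, 1877 and 2027 CPM in C and 799.7, 558 and 478 CPM in D. They gave 3023, 1775 and 1839.6 CPM in I and 1794, 552 and 424 CPM in DI. Its pattern was close to that of COX3: D was wholly below C, and the first DI library reached the lowest I library. The log2 fold change was −1.96 in D vs C (SE 0.50, adjusted p = 0.0948 by edgeR, 0.00107 with the block) and −1.26 in DI vs I (SE 0.49, adjusted p = 0.325 by edgeR, 0.00510 with the block).

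**Figure D1:**
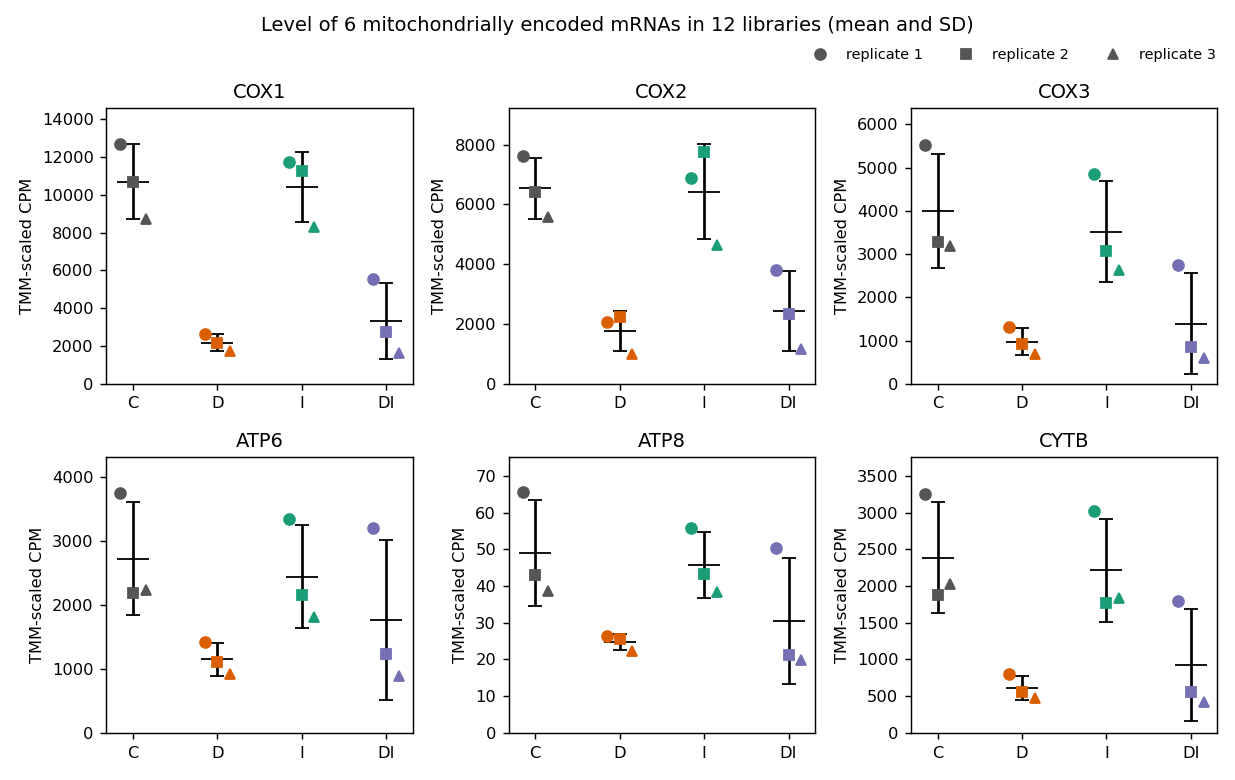
Level of each of the 6 mRNAs (y axis, TMM-scaled CPM, linear scale from 0) in the 12 libraries by group (x axis: C untreated, D doxycycline, I IFNγ, DI both). Symbols are single libraries, with the marker giving the replicate number, and the bar and whiskers are the mean and SD of 3 libraries. In all 6 panels the D libraries lie below the C libraries, and in the DI group replicate 1 lies above replicates 2 and 3.

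In D vs C, 1 of the 6 mRNAs was called lower, where 0.733% of all genes tested were called lower. With the block, 6 of 6 were called lower, beside 7.67% of all genes, and DESeq2 called 5 of 6, all but ATP8, beside 2.52%. For DI vs I, 0 of 6 passed by edgeR without the block, beside 0.569% of genes called lower, although 4 of 6 had an unadjusted p under 0.05 and DESeq2 called 2, COX1 and COX2, beside 1.97%. With the block 5 of 6 were called lower in DI vs I, beside 6.62% of genes. All 6 mRNAs had D below C without overlap, which held for 9.1% of genes tested in that direction, and each of those exact permutation tests gave p = 0.1, the smallest that 3 against 3 allows. COX1 and COX2 alone were without overlap in DI vs I, where 8.41% of genes were lower without overlap.

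The call of COX1 in D vs C needed each library of C and D. Leaving out any 1 of these gave an adjusted p of 0.0555 to 0.0716 by edgeR, and leaving out a whole replicate number 0.0941 to 0.179. The log2 fold changes were −2.46 to −2.15 throughout. Single libraries of I or DI were not left out for this comparison. Replicate 1 of DI, which stood apart from the other DI libraries in all 6 mRNAs, weighed most on DI vs I. Without it the log2 fold changes of DI vs I were −2.24 for COX1, −1.88 for COX2, −2.28 for COX3, −2.18 for CYTB, −1.21 for ATP6 and −1.16 for ATP8, and COX1, COX3 and CYTB were called lower (adjusted p = 0.0195, 0.0477 and 0.0374 by edgeR). ARID1A was at 151, 133 and 148 CPM in replicates 1, 2 and 3 of DI, so this library had the highest level of its group, and the part of that in the result was not tested.

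**Figure D2:**
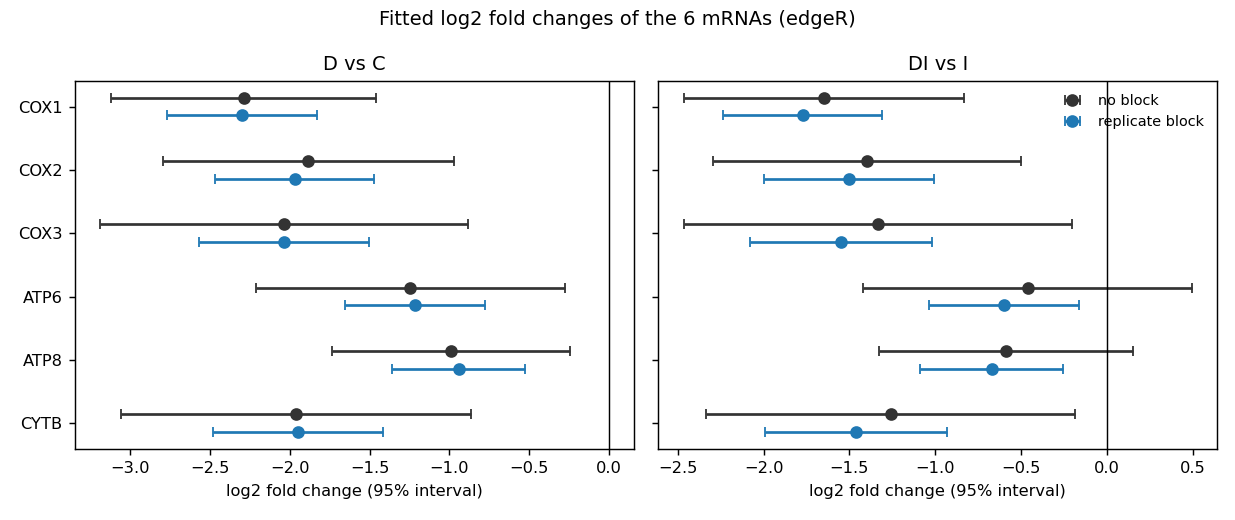
Fitted log2 fold change of each mRNA (x axis) with its 95% interval for D vs C (left) and DI vs I (right), by edgeR without a block (black) and with the replicate number as a block (blue). COX1 had the lowest point in both comparisons (−2.29 and −1.65 without the block), and ATP8 and ATP6 were nearest to 0.

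The replicate number accounted for much of the spread within groups. Replicate 1 had the highest level in 22 of the 24 combinations of mRNA and group, and replicate 3 the lowest in 21 of 24. Set against the library of the same number, every doxycycline library was lower: 18 of 18 ratios of D to C fell between −2.48 and −0.75 on the log2 scale, and 18 of 18 ratios of DI to I between −2.34 and −0.065. COX1 gave nearly the same ratio in the 3 pairs of D and C, at −2.26, −2.29 and −2.34. In the pairs of DI and I it was −1.07, −2.02 and −2.34, so the smaller mean change came from the first pair. What sets the replicates apart was not tested.

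For IFNγ by itself, no change of the 6 mRNAs was detected at this spread between replicates. In I vs C the log2 fold changes ran from −0.18 (COX3) to −0.03 (COX2), with 95% intervals between −1.29 and 0.95 in all. In DI vs D they ran from 0.30 (ATP8) to 0.62 (ATP6), with intervals between −0.60 and 1.66. edgeR called 0 of 6 in either comparison, none had an unadjusted p under 0.05, and DESeq2 and the block also called 0, with 2 under 0.05 unadjusted in DI vs D by the block. Of all genes, edgeR called 2.21% in I vs C and 1.72% in DI vs D, the block 6.02% and 4.46%, and DESeq2 3.36% and 2.57%. Whether the change with doxycycline differed with IFNγ was tested directly by the interaction. Its estimates were 0.40 (ATP8) to 0.78 (ATP6) with intervals between −0.87 and 2.27, and it called 0 of 6 by edgeR, by the block and by DESeq2 (none under 0.05 unadjusted), beside 0 of the 15828 genes by edgeR (0.0%, with 99 genes under 0.05 unadjusted) and 1 by DESeq2.

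Summed, the 6 mRNAs held 2.59% ± 0.558 of all counts in C (SD, n = 3) and 0.703% ± 0.181 in D, a drop of 1.89 percentage points or 3.69-fold. They held 2.39% ± 0.521 in I and 1.00% ± 0.652 in DI, a drop of 1.39 points or 2.39-fold. This share needs no scaling between libraries. Neither pair of groups overlapped (2.12 to 3.21% in C against 0.502 to 0.855% in D, 1.83 to 2.86% in I against 0.480 to 1.73% in DI), and both exact permutation tests gave the smallest possible p, 0.1, also after adjustment over the 2 comparisons. Within replicate numbers the smallest p is 0.25, which both also gave.

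In these libraries the 6 mRNAs did not appear to change by a common factor, a pattern that the tests below cannot settle. COX1 made up 40.7% ± 2.60 of the summed counts of the 6 in C and 32.9% ± 2.46 in D (SD, n = 3), and 41.8% ± 2.21 in I against 34.3% ± 1.65 in DI. ATP6 made up 10.2% ± 1.23 in C and 17.3% ± 1.63 in D, and 9.64% ± 1.48 in I against 17.7% ± 1.66 in DI. The share of COX1 thus went down and that of ATP6 went up, with and without IFNγ. COX2, COX3 and CYTB kept close to the same mean share of the 6. These were 25.01% ± 1.61, 14.95% ± 1.70 and 8.95% ± 1.15 in C and 25.88% ± 5.55, 14.43% ± 1.29 and 9.15% ± 1.07 in D. For COX2 the D libraries were at 25.1, 31.8 and 20.8%, on both sides of the C libraries at 23.2, 26.2 and 25.7%. Set against the other 5 in the same library, COX1 was 0.49 lower on the log2 scale in D than in C, ATP6 0.88 higher and ATP8 1.03 higher. The same 3 genes differed in DI against I, by −0.46 for COX1, 1.02 for ATP6 and 0.82 for ATP8. These 6 of the 12 comparisons had no overlap between groups, each with exact permutation p = 0.1 and adjusted p = 0.2, so none can pass a threshold at 3 against 3. In the other 6 the groups overlapped, with differences within −0.094 to 0.049. A ratio within a library shows unequal change and not which gene moved.

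The ratio of COX1 to ATP6 shows this most plainly. Replicates 1, 2 and 3 had 3.38, 4.88 and 3.90 counts of COX1 for each count of ATP6 in C, and 1.86, 1.97 and 1.88 in D. With IFNγ the values were 3.50, 5.22 and 4.55, and with IFNγ and doxycycline 1.74, 2.26 and 1.85. The ratio was thus above 3 in all 6 libraries without doxycycline and below 3 in all 6 with it, including the first DI library, whose levels of the single mRNAs stood apart from the other DI libraries. Group means were 4.05 ± 0.761 without and 1.90 ± 0.0571 with doxycycline, and 4.42 ± 0.866 without and 1.95 ± 0.271 with it under IFNγ (exact permutation p = 0.1 for each pair of groups, adjusted p = 0.35 over the 14 ratio comparisons made, which were chosen after the counts were seen). ATP8 over ATP6, from the pair of genes that overlap, was 0.0182 ± 0.00134 in C and 0.0219 ± 0.00301 in D, and the groups overlapped there (exact permutation p = 0.2). COX2 and COX3 over COX1 overlapped between groups as well, in both comparisons. Within replicate numbers, COX3 over COX1 was higher with doxycycline in 3 of 3 pairs of D and C and in 3 of 3 pairs of DI and I. COX2 over COX1 was higher in 2 of 3 and in 3 of 3 pairs, and ATP8 over ATP6 in 3 of 3 and in 1 of 3. With 3 pairs, the smallest exact p that changing the signs within pairs can give is 0.25.

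**Figure D3:**
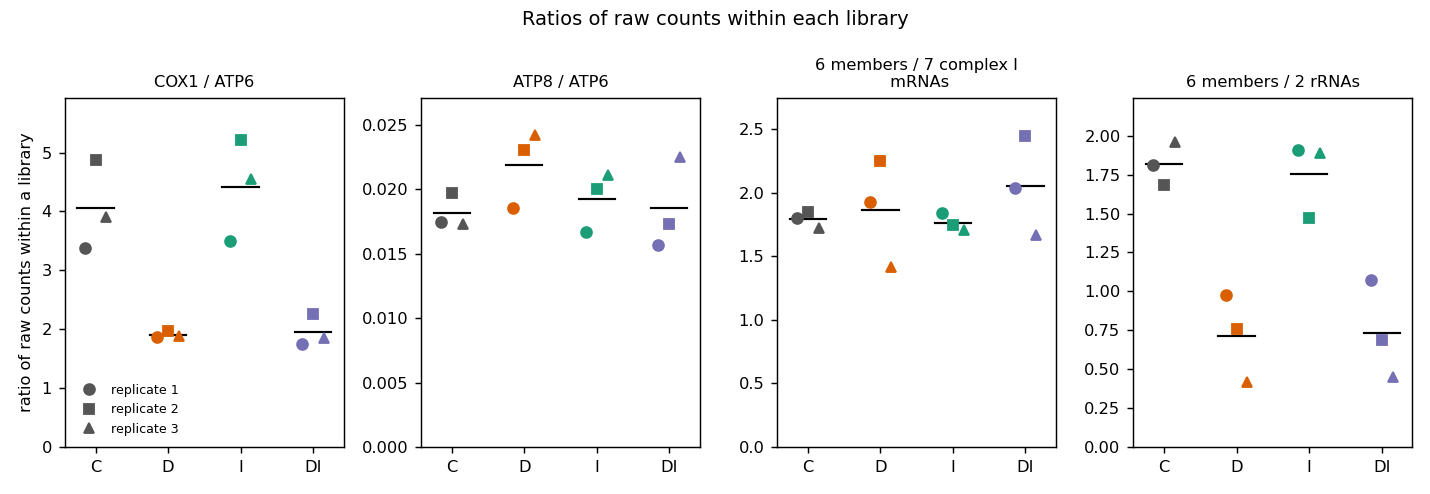
Ratios of raw counts within each library (y axes, linear from 0) by group (x axis) for COX1 over ATP6, ATP8 over ATP6, the 6 mRNAs over the 7 mitochondrial complex I mRNAs, and the 6 mRNAs over the 2 mitochondrial rRNAs. Symbols are libraries with markers by replicate number and lines are means of 3. COX1 over ATP6 falls from means of 4.05 and 4.42 to 1.90 and 1.95 with doxycycline, the ratio to the complex I mRNAs overlaps between groups, and the ratio to the rRNAs does not.

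Levels are comparable between genes only per length. In CPM per kilobase the order in C was COX2 (9568), COX1 (6933), COX3 (5105), ATP6 (4003), CYTB (2092) and ATP8 (237), and it was the same in I. In D it was COX2 (2594), ATP6 (1690), COX1 (1417), COX3 (1247), CYTB (536) and ATP8 (120), and again the same in DI. ATP6 stood behind COX3 in C and next to COX2 in D, although neighbors from COX2 to ATP6 in C, and from COX2 to COX3 in D, had overlapping libraries. CYTB and ATP8 lay below their upper neighbor without overlap in C, D and I. The low value of ATP8 carries a limit, since 22.2% of its 207 bases are also ATP6 and only 161 are its own. How a read over both genes was counted is not given in the sources used here.

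The other products of the mitochondrial genome divided into those that moved like these 6 and those that did not. The 7 complex I mRNAs were all lower in D vs C, 5 of them called, beside 0.733% of all genes called lower. Their median log2 fold change was −2.02 (−2.63 to −1.11), beside a median of −1.92 for the 6 and −0.0012 for all genes tested. With IFNγ in both groups all 7 were again below 0, with a median of −1.64 beside −1.30 for the 6. Of the 7, 3 were called, beside 0.569% of all genes called lower. The summed counts of the 6 over those of the 7 were 1.79 ± 0.0639 in C and 1.87 ± 0.421 in D (exact permutation p = 0.9), and 1.77 ± 0.0675 in I and 2.05 ± 0.388 in DI (p = 0.4), with overlap in both pairs. The 2 rRNAs, which form the mitochondrial ribosome and come from the start of the same heavy-strand precursor, were at 0.14 (RNR1) and −0.65 (RNR2) in D vs C and at 0.48 and −0.27 in DI vs I, with 0 of 2 called in either comparison by edgeR, with or without the block, or by DESeq2 (RNR2 in D vs C had an unadjusted p under 0.05). The 6 mRNAs over the 2 rRNAs went from 1.82 ± 0.138 in C to 0.716 ± 0.284 in D, and from 1.76 ± 0.247 in I to 0.734 ± 0.315 in DI. Neither pair overlapped (exact permutation p = 0.1, adjusted p = 0.35). In these counts the mRNAs and rRNAs thus did not go down in a fixed proportion, a pattern that the adjusted p does not establish. RNR1 over RNR2 also varied, at 0.075, 0.068 and 0.095 in C and 0.079, 0.169 and 0.149 in D. The selection of RNA is not given in the sources used here, so its part in the rRNA counts cannot be told. RNR1 had a mean of 1054 CPM in C and 1162 in D, and RNR2 had 13550.0 and 8659.

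**Figure D4:**
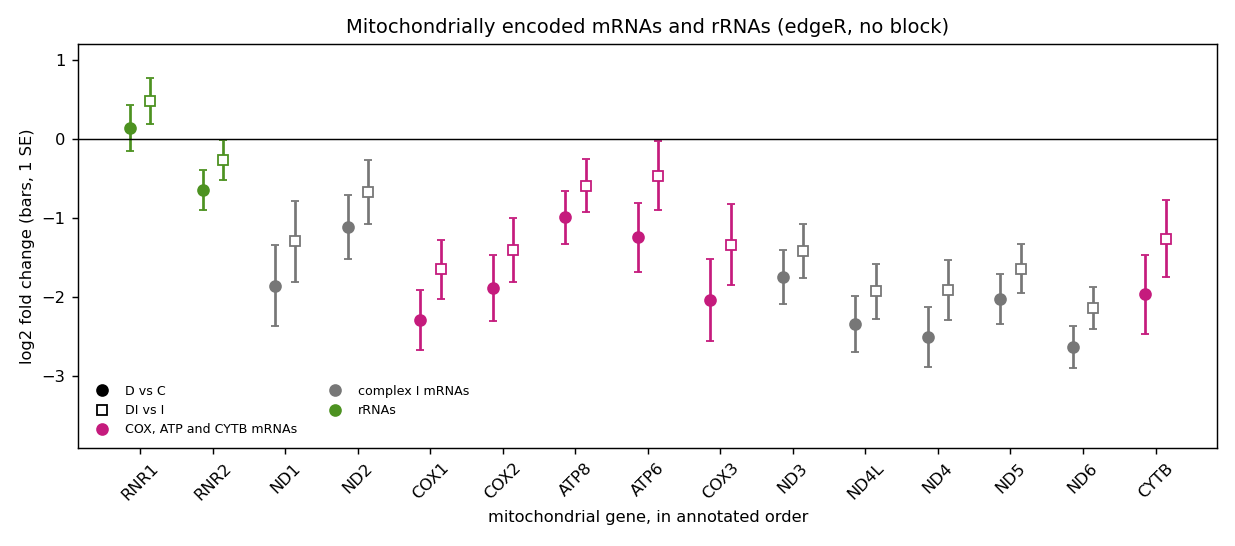
Log2 fold change (y axis, whiskers 1 SE, edgeR without a block) of the 13 mitochondrial mRNAs and 2 rRNAs in the order of their annotated positions (x axis, not to scale), for D vs C (filled circles) and DI vs I (open squares). The 6 mRNAs of complexes III, IV and V are in pink, between −2.29 and −0.99 in D vs C, complex I mRNAs are in gray and the rRNAs in green.

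The nucleus holds many copies of mitochondrial sequence, and such a copy can receive reads of the mitochondrial gene. The table lists 47 copies of COX1, 30 of COX2, 36 of COX3, 26 of ATP6, 2 of ATP8 and 42 of CYTB, most of them without counts, and 3 passed the expression filter. MTCO1P12 (chr1:631074-632616) differs from COX1 at 20 of 1542 aligned bases and shares a run of 245 identical bases with it. It held 7.995 to 9.74% of the counts of the pair in every library and changed by −2.36 in D vs C (SE 0.41, adjusted p = 0.0252 by edgeR). MTATP6P1 (chr1:633696-634376) differs from ATP6 at 10 of 681 bases, held 16.3 to 20.9% of the pair and changed by −1.07 (SE 0.42, adjusted p = 0.280 by edgeR, 0.00295 with the block). The difference between COX1 and ATP6 was thus present in the counts of their copies too, and whether those counts are reads of the mitochondrial genes cannot be told apart. MTCO1P28 had 104 counts over all libraries. Adding the copies to their mitochondrial genes left every call of the 6 in D vs C and DI vs I as it was.

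Most nuclear-encoded partners of these subunits changed far less. Among the nuclear-encoded subunits of complex IV, 13 of 16 were tested, with a median log2 fold change of −0.29 in D vs C. Of these, 1 was called lower and 0 higher, beside 0.733% of all genes called lower. The gene called was COX7C, a small structural subunit, which fell by 0.55 on the log2 scale (SE 0.0997, adjusted p = 0.0278 by edgeR), from a mean of 158 to 108 CPM, and stood at −0.49 in DI vs I (adjusted p = 0.0554 by edgeR, 0.00211 with the block). With the block 5 of 13 were called lower in D vs C, beside 7.67% of all genes. They were COX5A, COX6A1, COX6B1, COX7A2 and COX7C, of which COX6B1 had the largest change at −0.78. Apart from COX7C, these were named after their values were seen. DESeq2 called 2 of the 13, counted in either direction, where it called 2.52% of all genes lower. COX4I2, an alternative form of subunit IV, had a lower estimate than any of them, at −2.31 (SE 1.04, adjusted p = 0.349 by edgeR), with mean levels of 11.5 CPM in C and 2.30 CPM in D, and it was not called. For DI vs I, 0 of 13 passed without the block, 2 with it and 1 by DESeq2 in either direction, with 2 under 0.05 unadjusted. Of all genes, 0.569%, 6.62% and 1.97% were called lower there. In D vs C, the mRNAs of the catalytic core, COX1 to COX3, were at −2.29 to −1.88 on the log2 scale.

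The assembly factors of complex IV, some of which help to insert its heme and copper, had a median of −0.01 over 23 tested genes in D vs C. Of these, 0 were called by edgeR without the block, 1 with it and 1 by DESeq2 (2 under 0.05 unadjusted). For nuclear subunits and assembly factors of complex III, the partners of CYTB, the median was −0.23 over 15 genes, with 0 called by edgeR without the block, 6 called lower with it and 1 called by DESeq2 (5 under 0.05 unadjusted). The nuclear genes of the ATP synthase, partners of ATP6 and ATP8, had a median of −0.19 over 24 genes, 23 of them below 0, with 0 called by edgeR without the block, 6 called lower with it and 0 called by DESeq2 (1 under 0.05 unadjusted). These shares with the block, at 1 of 23, 6 of 15 and 6 of 24, stand beside 7.67% of all genes called lower. Without the block, edgeR called 0.733% of all genes lower. The counts by DESeq2 are of calls in either direction. DESeq2 called 649 genes in either direction, and 344 of these (2.52% of all genes) were lower.

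Genes that make and keep mitochondrial RNA changed less than the 6 in D vs C. The 6 genes of mitochondrial transcription, with the polymerase POLRMT and the factor TFAM, had log2 fold changes of −0.28 to 0.14 in D vs C, and 0 were called by edgeR with or without the block or by DESeq2 (0 under 0.05 unadjusted). Of 22 genes for processing, polyadenylation, stability and translation of mitochondrial mRNA, 0 were called in D vs C by edgeR without the block and 1 by DESeq2 (2 under 0.05 unadjusted), and the median was −0.09. With the block 3 were called lower and 1 higher in D vs C. Of all genes, 7.67% were called lower by the block, 2.52% by DESeq2 and 0.733% by edgeR without the block. The block called 986 genes higher, and the 1 call by DESeq2 was counted in either direction. Called by the block were TBRG4 (−0.34), which stabilises a subset of mitochondrial mRNAs, and GRSF1 (−0.36), an RNA-binding protein of mitochondrial RNA granules. It also called TRMT10C (−0.34), a subunit of the RNase P that cuts the precursor at its tRNAs, and MTPAP (0.31), the mitochondrial poly(A) polymerase. These 4 were named after their values were seen. In DI vs I the median of the 22 was −0.12, and edgeR without the block called 0 (5 under 0.05 unadjusted). The block called 3 lower and 1 higher there, beside 6.62% of all genes called lower. DESeq2 called 1, counted in either direction, beside 1.97% of all genes called lower. Without the block, edgeR called 0.569% of all genes lower. Of the 6 transcription genes, 0 were called in DI vs I by any of the 3 (1 under 0.05 unadjusted). For LRPPRC, which binds and stabilises mitochondrial mRNAs, the values were 555 CPM in C and 492 CPM in D (log2 fold change −0.18, adjusted p = 0.459 by edgeR, 0.111 with the block), and it too was chosen after its value was seen.

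**Figure D5:**
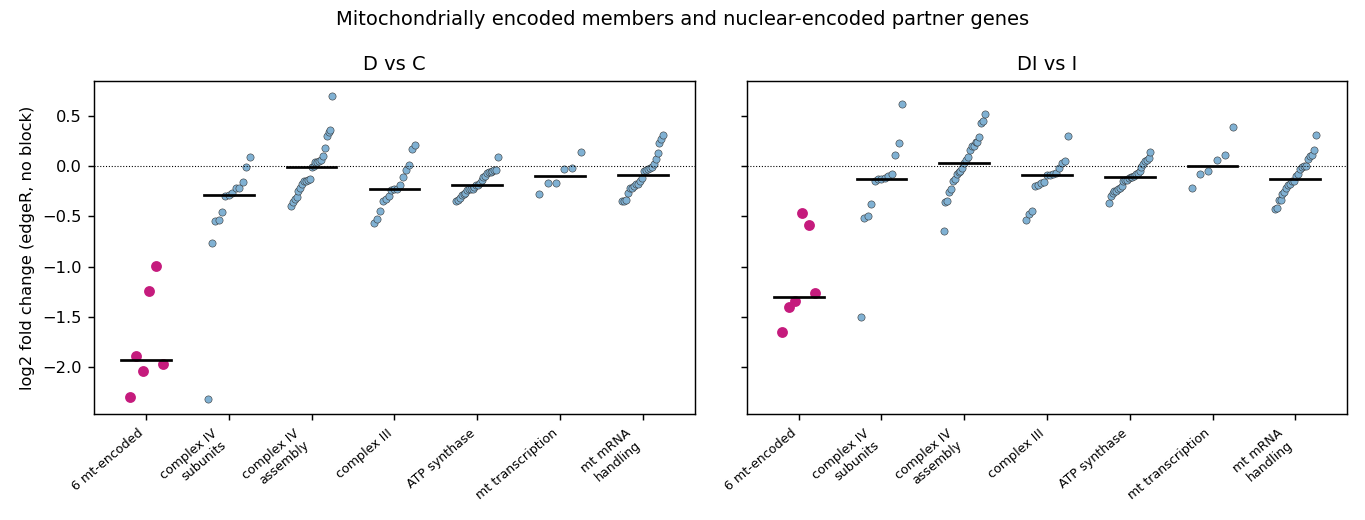
Log2 fold changes (y axis, edgeR without a block) in D vs C (left) and DI vs I (right) for the 6 mitochondrially encoded mRNAs (pink) and for the tested genes of 6 lists of nuclear genes (blue), with lines at the medians. In D vs C the 6 lie between −2.29 and −0.99 with a median of −1.92, and the list medians lie between −0.29 and −0.01.

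Over the 12 libraries, the nuclear genes with the pattern nearest to the mean of the 6 included 4 annotated copies of mitochondrial genes, MTND1P23, MTATP6P1, MTCO1P12 and MTND2P28, at distances of 0.276 to 0.378. The distance is the root mean square difference between log2 CPM profiles, each centered on its own mean. The 6 themselves lay at 0.179 (CYTB) to 0.381 (ATP8), values that are small in part because the 6 make up that mean. The 7 complex I mRNAs lay at 0.270 (ND3) to 0.527 (ND6), and the median of all genes tested was 0.955. The other 4 among the nearest 8 were PSTPIP1, TWF1, CDC42SE2 and SERTM2, at 0.337 to 0.384. TWF1, an actin-binding protein, had mean levels of 49.8 CPM (C), 25.8 CPM (D), 57.3 CPM (I) and 28.0 CPM (DI) (log2 fold changes −0.95 and −1.04, adjusted p = 0.229 and 0.241 by edgeR). Likeness in 12 libraries that share their replicate numbers is a description only.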

How the data were processed

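RNA of 12 SK-N-DZ libraries was sequenced as paired reads, and raw counts per gene were made and deposited by the authors. The aligner, the annotation, the selection of RNA and the use of strand are not given in the sources used here. Every gene identifier was found in GENCODE release 29, which gave positions and sequences. Tables with log2 fold changes and p-values of the authors' own comparisons were not used, nor were 18 per-library columns whose names the labels do not explain.

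Counts were scaled by TMM, filtered by filterByExpr (minimum count 10) and fitted in one model of 4 groups without a block (edgeR 4.0.16, limma 3.58.1, R 4.3.3). Tests were two-sided and adjusted over 15828 genes. CPM divides counts by the TMM-scaled library size. DESeq2 1.42.0 was an alternative, as were other scalings, filters, thresholds, a replicate block and leaving out libraries. Python 3.11.15 ran the exact permutation tests, and Biopython 1.88 aligned the nuclear copies. The code was tested on simulated counts.

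The replicate numbers pair the libraries: after removal of group means, libraries of the same number correlated at 0.338 to 0.804 (18 pairs) and those of other numbers at −0.628 to 0.143 (36 pairs). The labels do not say what a number stands for.

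The 6 mRNAs, the gene lists (from general knowledge) and the tests were chosen with earlier results of these data known. Named were the 6 mRNAs, ARID1A, tested nuclear copies, at most 4 called genes of each list, and the 8 nuclear genes nearest in pattern, with exceptions stated in the text.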

Additional observations from a re-analysis of the deposited data

How the results depend on the processing

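The direction of all 6 mRNAs in D vs C and DI vs I was the same in every setting run. Without a filter on low counts 2 of 6 were called in D vs C, with DESeq2 5, with the replicate block 6 and at an adjusted p under 0.01 0 (main value 1). In DI vs I DESeq2 called 2 and the block 5 (main value 0). Counts over all genes in D vs C were 119 without the filter, 649 by DESeq2, 16 with only the groups compared, 2200 with the block and 32 at 0.01 (main 194). In DI vs I they were 446 by DESeq2, 0 with only the groups compared (1508 under 0.05 unadjusted), 1658 with the block and 30 at 0.01 (main 106). I vs C gave 531 by DESeq2 and 953 with the block (main 350), DI vs D 706 with the block (main 273) and the interaction 1 by DESeq2 (main 0, with 99 genes under 0.05 unadjusted). Scaling by library size alone moved the median of all genes by 0.09 on the log2 scale in D vs C and turned the split of calls from 78 higher and 116 lower to 199 and 89, and in DI vs I from 16 and 90 to 54 and 65, with the calls of the 6 unchanged. Leaving out single libraries of the groups compared, or a replicate number, gave 0 of 6 called for D vs C. For DI vs I it gave 0 to 3 of 6 (3 without DI replicate 1). Over all genes it gave 0 to 100 calls for D vs C, 0 to 77 for DI vs I, 127 to 314 in I vs C and 98 to 244 in DI vs D. Several log2 fold changes of I vs C, DI vs D and the interaction crossed 0 under these omissions. In I vs C they ran from −0.17 to 0.091 for COX1, −0.20 to 0.15 for COX2, −0.49 to 0.11 for COX3, −0.46 to 0.13 for ATP6, −0.27 to 0.15 for ATP8 and −0.40 to 0.17 for CYTB. In DI vs D they ran from −0.023 to 0.79 for COX2, −0.43 to 0.88 for COX3, −0.13 to 0.94 for ATP6, −0.27 to 0.54 for ATP8 and −0.33 to 0.94 for CYTB, and in the interaction from −0.25 to 1.06 for COX3, −0.22 to 0.69 for ATP8 and −0.22 to 1.05 for CYTB. The fits without the low-count filter and with fewer libraries test other numbers of genes. The causes of the other differences were not tested. With 3 libraries a group, exact tests cannot go below 0.1, and the low depth of ATP8 and the reads it shares with ATP6 limit what can be said of it.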

Other observations

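The tRNAs between the mRNAs gave a mixed picture. Of 22 mitochondrial tRNA genes, 15 were tested, with log2 fold changes of −2.83 to 1.81 in D vs C. By edgeR 4 were called lower and 0 higher, beside 0.733% of all genes called lower. The 4 called genes, named after their values were seen, were those for cysteine (TRNC, −1.70, from a mean of 97.5 to 30.1 CPM), asparagine (TRNN, −1.74, from 68.9 to 20.7 CPM), proline (TRNP, −1.93, from 24.9 to 6.53 CPM) and tyrosine (TRNY, −2.44, from 6.59 to 1.21 CPM). TRNC, TRNN and TRNP were called lower in DI vs I as well, at −1.66, −1.76 and −1.88, beside 0.569% of all genes. All 4 are annotated on the minus strand, as is ND6, the mitochondrial mRNA with the largest decrease in D vs C (−2.63). Low estimates were not limited to that strand. TRNT and TRNL1, on the plus strand, were at −2.83 and −1.66 and not called (adjusted p = 0.299 and 0.181 by edgeR). TRNE, on the minus strand, was at −1.62 and not called (adjusted p = 0.559 by edgeR). TRNT and TRNE had means of 1.36 and 0.668 CPM in C. The use of strand in counting is not given in the sources used here, so reads of plus-strand precursors over these genes cannot be told apart from their own.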
